A study of Mus musculus with 8 samples.

Results

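The 47 genes described here encode the Wnt ligands, their receptors and co-receptors, the secreted antagonists of the Sfrp and Dkk families, and 5 genes that act in or answer to the pathway. A rule on names picked them from 24421 gene names: every Wnt, Fzd, Sfrp and Dkk gene, with Lrp5, Lrp6, Ror1, Ror2, Ryk, Axin2, Lef1, Tcf7, Rnf43 and Znrf3. The rule uses no levels, but it was set with earlier results of these data known. By role they are 19 ligands, 10 Frizzled receptors, 5 co-receptors, 8 secreted antagonists, and a last group of 5 with 2 transcription factors (Tcf7 and Lef1), the feedback gene Axin2 and 2 E3 ubiquitin ligases (Rnf43 and Znrf3).

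The RNA came from MCa-P1362, a line grown from a mammary tumour that arose spontaneously in a female Balb/c mouse. Flow cytometry split its cells by EpCAM, which holds epithelial cells together, and 8 libraries were sequenced, 2 for each of 4 groups: monoculture EpCAM+, monoculture EpCAM-, coculture EpCAM+ and coculture EpCAM-. All groups shared the line and the medium, high glucose DMEM with 10% serum, and the labels name no engineered allele and no drug. Sorted cells were frozen at once or passaged once before freezing, and the labels do not say which of these "coculture" and "monoculture" name. Nothing in the labels tells if both libraries of a group were separate cultures. Every p-value below therefore rests on how far these libraries spread, and that spread may be technical. A single line gives no measure of how tumours differ.

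Wnt proteins are lipid-modified ligands that leave the cell with the carrier protein Wls and bind Frizzled receptors on the same or nearby cells. With the co-receptors Lrp5 and Lrp6 they stabilise beta-catenin, which acts on genes together with the TCF/LEF factors, and with Ror1, Ror2 or Ryk they act on cell polarity and movement without beta-catenin. Sfrp proteins bind the ligands and Dkk proteins bind Lrp5 and Lrp6. In the mammary gland Wnt signals pass between epithelium and stroma and take part in branching and in the upkeep of stem cells.

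The values are FPKM, which are scaled per transcript length, so that levels of different genes can be set side by side. The sums over all genes lay between 387489 and 414612 FPKM per library, and 10634 to 11119 genes reached 1 FPKM. The 12 epithelial markers summed to 9995 to 10101 FPKM in monoculture EpCAM+ libraries, against 19.8 to 21.1 in monoculture EpCAM- libraries, and to 10866 to 10972 in coculture EpCAM+ libraries, against 35.0 to 35.4 in coculture EpCAM- libraries. The 12 stromal markers summed to 35.2 to 35.6 FPKM in monoculture EpCAM+ libraries, against 9233 to 9287 in monoculture EpCAM- libraries, and to 178 to 179 in coculture EpCAM+ libraries, against 9530 to 9594 in coculture EpCAM- libraries. Among the defining markers Krt5 stayed at or below 0.183 FPKM and Lum at or below 0.195 FPKM in all 8 libraries. Markers of leukocytes, endothelium, adipocytes, erythroid cells, muscle and nerve summed to at most 3.89 FPKM in any library. The EpCAM- fraction thus carried RNA of collagens and Acta2 and nearly none of keratins, while the labels give 1 cell type, breast cancer cells, for all samples. Epcam itself, the sort marker, had 129 and 133 FPKM in monoculture EpCAM+ libraries, against 0.225 and 0.26 FPKM in monoculture EpCAM- libraries, and 200 and 202 FPKM in coculture EpCAM+ libraries, against 0.341 and 0.359 FPKM in coculture EpCAM- libraries.

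Promoter sequence could be shown for 32 of the 47 genes, as windows from 250 bases before to 50 bases after a RefSeq start on GRCm38.p6. The windows of 4 genes with large differences between the fractions are given here, 2 of genes with more RNA in EpCAM+ cells (Wnt5b and Tcf7) and 2 of genes with more RNA in EpCAM- cells (Fzd7 and Ror2). Each is written 5′ to 3′ on the gene's own strand, and capitals mark a heptamer that TCF/LEF factors can bind. The first heptamer searched on either strand was AACAAAG; those that differ from it in the opening letters were ATCAAAG on the same terms, then likewise TACAAAG, and lastly TTCAAAG.
Wnt5b, chr6:119449337-119449636, minus strand: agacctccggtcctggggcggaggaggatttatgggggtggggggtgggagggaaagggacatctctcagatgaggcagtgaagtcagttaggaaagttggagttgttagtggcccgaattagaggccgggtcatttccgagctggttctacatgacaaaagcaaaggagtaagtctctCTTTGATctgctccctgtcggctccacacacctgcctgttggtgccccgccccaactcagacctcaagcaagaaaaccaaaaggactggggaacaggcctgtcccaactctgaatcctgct
Tcf7, chr11:52282965-52283264, minus strand: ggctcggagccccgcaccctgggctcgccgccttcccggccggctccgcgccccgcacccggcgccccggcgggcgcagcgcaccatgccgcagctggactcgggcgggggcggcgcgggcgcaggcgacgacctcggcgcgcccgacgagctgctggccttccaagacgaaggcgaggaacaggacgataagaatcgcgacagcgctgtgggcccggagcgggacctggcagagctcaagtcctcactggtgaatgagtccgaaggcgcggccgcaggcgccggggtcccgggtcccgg
Fzd7, chr1:59481897-59482196, plus strand: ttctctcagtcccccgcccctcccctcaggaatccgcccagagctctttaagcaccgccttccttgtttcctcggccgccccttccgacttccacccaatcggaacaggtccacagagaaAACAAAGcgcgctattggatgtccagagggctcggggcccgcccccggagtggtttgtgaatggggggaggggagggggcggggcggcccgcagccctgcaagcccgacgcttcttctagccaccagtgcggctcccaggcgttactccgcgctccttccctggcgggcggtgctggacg
Ror2, chr13:53286075-53286374, minus strand: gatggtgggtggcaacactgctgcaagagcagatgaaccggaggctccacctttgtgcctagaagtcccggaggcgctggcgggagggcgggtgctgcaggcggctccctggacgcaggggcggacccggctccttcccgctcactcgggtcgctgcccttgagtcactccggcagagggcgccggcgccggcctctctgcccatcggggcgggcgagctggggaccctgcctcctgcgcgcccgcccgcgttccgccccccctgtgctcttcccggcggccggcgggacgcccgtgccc

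The Wnt5b window held ATCAAAG on the opposite strand at 71 bases before the start, and it belongs to 1 of 3 RefSeq starts of that gene, which FPKM per gene cannot tell apart. The windows at the other 2 starts, not printed, held none of the 4 heptamers. The Fzd7 window held AACAAAG on the gene's strand at 130 bases before the start. The printed Tcf7 and Ror2 windows held none of the 4 heptamers. Tcf7 has another RefSeq start, which FPKM per gene cannot tell apart from the printed one. Its window (chr11:52282546-52282845, minus strand), not printed, held none either. Among all 40 windows of these genes, 6 (15.0%) held at least 1 heptamer, against 5544 of 32851 windows in the whole table (16.9%). The other 4 were windows of Wnt11, Wnt3, Lef1 and Dkk1. A match is a run of letters, not a measured binding site.

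Ligand RNA lay mostly in the EpCAM+ fraction and Frizzled RNA in both fractions. Summed over the 19 ligands, monoculture EpCAM+ libraries held 111 ± 0.926 FPKM, against 26.4 ± 1.09 FPKM in monoculture EpCAM- libraries (SD, n = 2 each), a ratio of 4.19. In coculture the sums were 128 ± 1.22 FPKM in EpCAM+ and 52.6 ± 0.407 FPKM in EpCAM- libraries (SD, n = 2 each), a ratio of 2.43. The 10 Frizzled receptors summed to 104 ± 0.647 FPKM in monoculture EpCAM+ libraries, against 169 ± 2.91 FPKM in monoculture EpCAM- libraries. In coculture the Frizzled sums were 109 ± 2.95 FPKM in EpCAM+ and 111 ± 0.974 FPKM in EpCAM- libraries, a difference smaller than the spread between the libraries. That ratio was 0.982 as deposited and 0.804 with the libraries scaled by the median of ratios (each library divided by its median ratio to the geometric mean over libraries), while the ligand ratios stayed above 1 under every scaling tried (3.53 to 4.22 and 1.99 to 2.43). Both fractions therefore carried RNA for ligands and for receptors. The ligand sums differed between the fractions in both cultures and the Frizzled sums in monoculture. The genes that made up the sums differed as well.

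**Figure D1:**
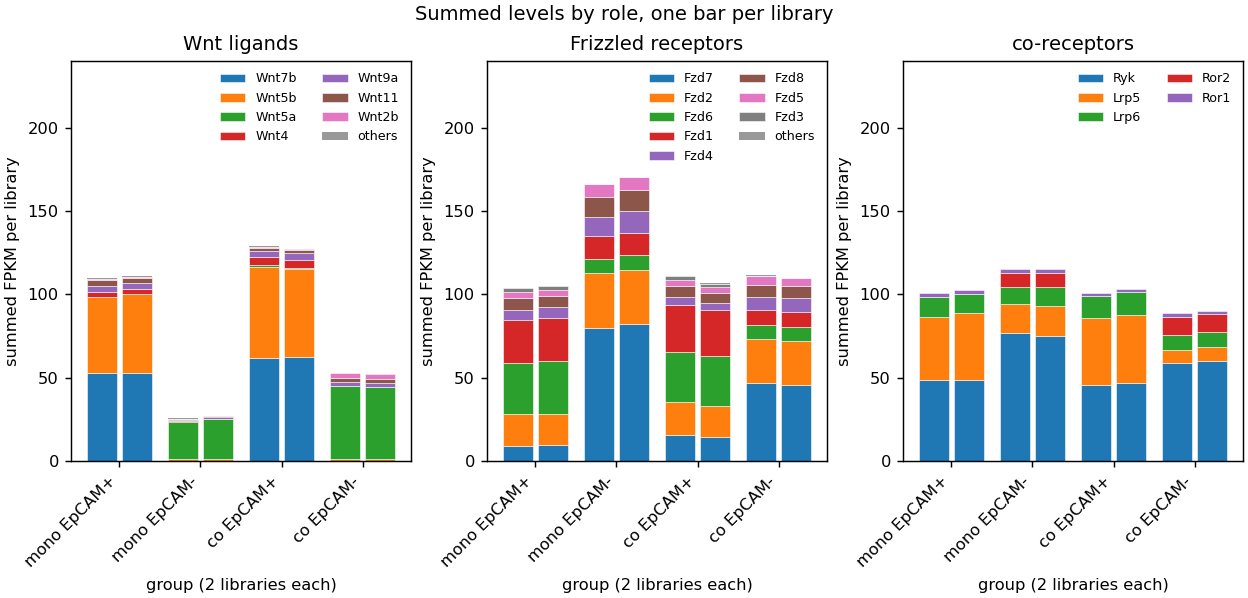
Summed FPKM per library of the Wnt ligands, the Frizzled receptors and the co-receptors, one stacked bar per library and one colour per gene. The ligand bars are filled by Wnt7b and Wnt5b in the EpCAM+ libraries and by Wnt5a in the EpCAM- libraries, while Fzd7 takes the largest part of the Frizzled bars of EpCAM- libraries.

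The 5 co-receptors summed to 102 ± 1.28 FPKM in monoculture EpCAM+ libraries, against 115 ± 0.0721 FPKM in monoculture EpCAM- libraries, a ratio of 0.883. In coculture they summed to 102 ± 1.54 FPKM in EpCAM+ and 89.5 ± 1.15 FPKM in EpCAM- libraries, a ratio of 1.14 that became 0.935 when the libraries were scaled by the median of ratios. The 8 secreted antagonists summed to 11.7 ± 0.696 FPKM in monoculture EpCAM+ and 31.7 ± 0.0234 FPKM in monoculture EpCAM- libraries. Their coculture sums were 14.5 ± 0.0425 FPKM in EpCAM+ and 28.4 ± 0.0565 FPKM in EpCAM- libraries (SD, n = 2 in each group). Antagonist RNA was thus the lower in EpCAM+ cells of both cultures, with ratios of 0.37 and 0.513. In bulk RNA, fewer cells of a type and less RNA per cell cannot be told apart.

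**Figure D2:**
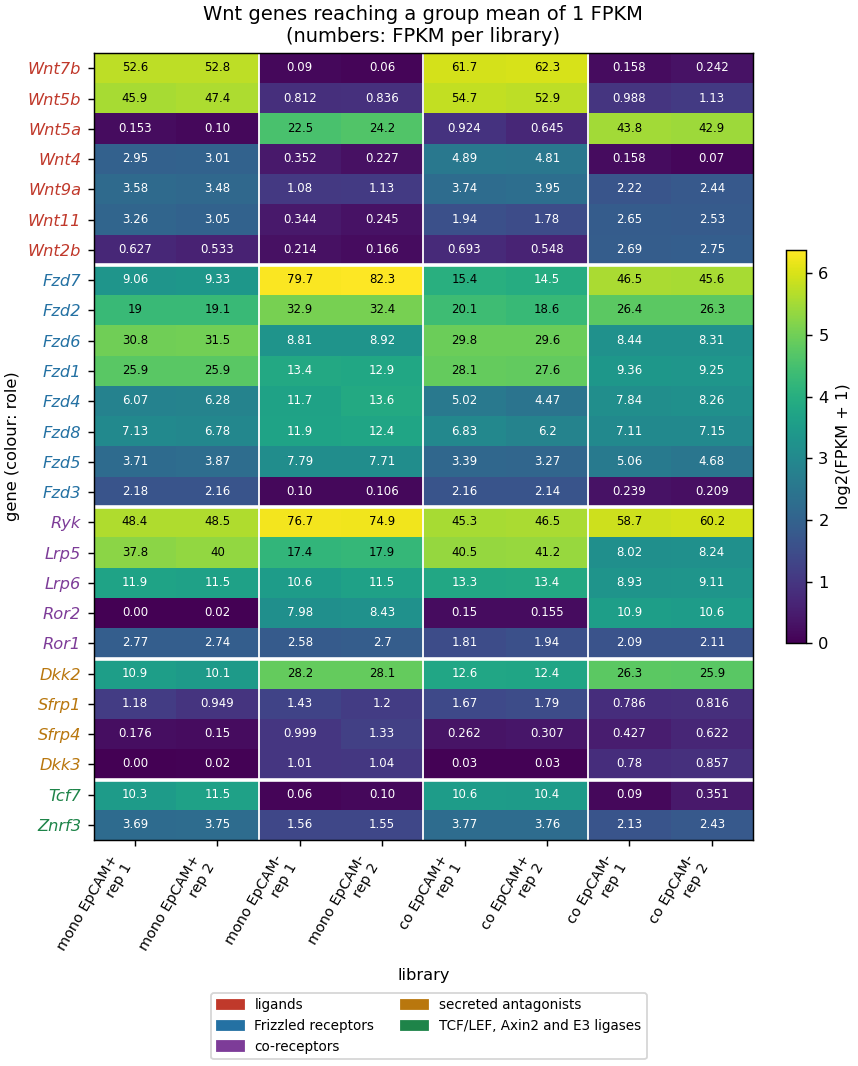
Levels of the 26 Wnt genes whose mean reaches 1 FPKM in at least 1 group, with rows for genes ordered by role, columns for the 8 libraries, colour for log2(FPKM + 1) and the FPKM printed in each cell. The 2 libraries of a group look alike in every row, and Wnt7b, Wnt5b, Fzd3 and Tcf7 stand opposite Wnt5a, Ror2 and Dkk3.

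Differences were tested with limma on log2(FPKM + 1), with Benjamini-Hochberg adjustment over the 12012 genes that reached 1 FPKM in at least 2 libraries, and genes with an adjusted p below 0.05 count as called. Of the 47 genes, 25 met that filter: 7 ligands, 8 Frizzled receptors, all 5 co-receptors, 3 antagonists, and Tcf7 and Znrf3. The fold changes are on the log2(FPKM + 1) scale, which understates the change of genes at low levels. In monoculture 22 of the 25 were called between EpCAM+ and EpCAM- cells, 12 higher and 10 lower in EpCAM+, where 87.9% of all tested genes were called (55.4% higher and 32.4% lower). In coculture 23 were called, 12 higher and 11 lower in EpCAM+, where 87.2% of all tested genes were called (59.2% higher and 28.0% lower). These shares are near those of all genes, so the size of a difference says more here than its call. Counting calls of at least 2-fold, a rule added with results known, 9 were higher and 5 lower in monoculture EpCAM+ cells, where 28.1% of all genes passed (15.5% higher and 12.6% lower). In coculture 8 were higher and 5 lower in EpCAM+ cells by that rule, where 26.5% of all genes passed (16.5% higher and 10.1% lower). The median change of the 25 was 0.07 in monoculture and -0.11 in coculture, against 0.23 and 0.26 over all tested genes. The all-gene median moved by -0.21 in monoculture and -0.26 in coculture when libraries were scaled by the median of ratios. Under that scaling 50.8% of all called genes were higher in monoculture EpCAM+ cells and 50.2% in coculture EpCAM+ cells, against 63.1% and 67.9% as deposited. With quantile normalization these shares were 55.4% and 51.0%.

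**Figure D3:**
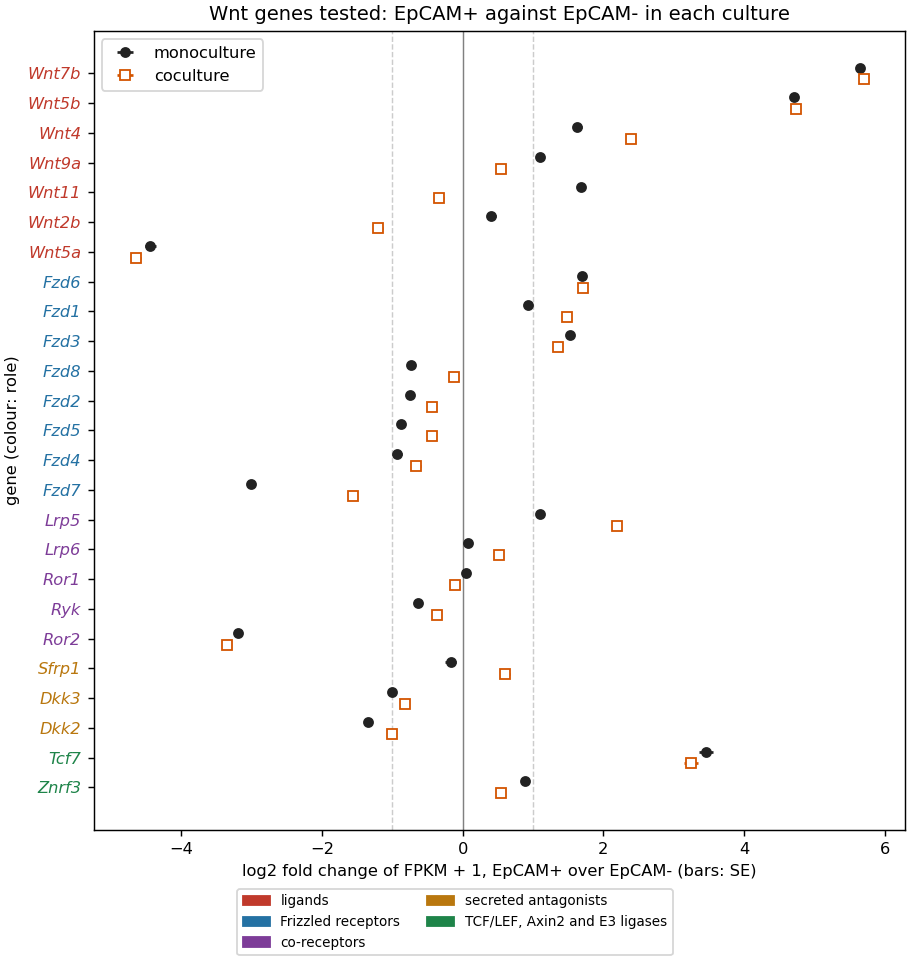
Log2 fold change of FPKM + 1, EpCAM+ over EpCAM-, for the 25 tested Wnt genes, with filled circles for monoculture, open squares for coculture, bars for the standard error and dashed lines at a change of 2-fold. Wnt7b and Wnt5b lie far to the right and Wnt5a, Ror2 and Fzd7 far to the left in both cultures, whereas Wnt11 and Wnt2b lie on opposite sides of 0 in the 2 cultures.

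Of the 7 tested ligands, 6 were higher and 1 lower in monoculture EpCAM+ cells, and 4 were higher and 3 lower in coculture EpCAM+ cells. Wnt7b, which acts through beta-catenin in lung and kidney development, and Wnt5b, a ligand mostly linked to signalling without beta-catenin, made up nearly all ligand RNA of EpCAM+ cells. Wnt7b (ENSMUSG00000022382.15, chr15:85535437-85582473, minus strand, GRCm38) had 52.6 and 52.8 FPKM in monoculture EpCAM+ libraries, against 0.0921 and 0.0582 FPKM in monoculture EpCAM- libraries. In coculture it had 61.7 and 62.3 FPKM in EpCAM+ and 0.158 and 0.242 FPKM in EpCAM- libraries. Every EpCAM+ library was thus far above every EpCAM- library, with log2 fold changes of 5.64 in monoculture (SE 0.046, limma adjusted p = 9.00e-12) and 5.71 in coculture (SE 0.046, adjusted p = 1.03e-11). Wnt5b (ENSMUSG00000030170.14, chr6:119432531-119544347, minus strand) had 45.9 and 47.4 FPKM in monoculture EpCAM+ libraries, against 0.812 and 0.836 FPKM in monoculture EpCAM- libraries. Its coculture levels were 54.7 and 52.9 FPKM in EpCAM+ and 0.988 and 1.13 FPKM in EpCAM- libraries. The groups did not overlap in either culture, and the log2 fold changes were 4.71 (SE 0.045, adjusted p = 2.01e-11) in monoculture and 4.74 (SE 0.045, adjusted p = 2.44e-11) in coculture. Wnt7b and Wnt5b together gave 89.9% of the ligand sum in monoculture EpCAM+ cells and 90.4% in coculture EpCAM+ cells, with Wnt7b the higher of the pair in every EpCAM+ library.

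Wnt5a, the classical ligand of Ror2, was the ligand of the EpCAM- fraction. Wnt5a (ENSMUSG00000021994.15, chr14:28504750-28527448, plus strand) had 0.153 and 0.0959 FPKM in monoculture EpCAM+ libraries, against 22.5 and 24.2 FPKM in monoculture EpCAM- libraries. In coculture it had 0.924 and 0.645 FPKM in EpCAM+ and 43.8 and 42.9 FPKM in EpCAM- libraries. It fell in EpCAM+ cells by 4.44 (SE 0.077, adjusted p = 4.20e-10) on the log2 scale in monoculture and by 4.64 (SE 0.077, adjusted p = 3.58e-10) in coculture. Wnt5a gave 88.6% of the ligand sum in monoculture EpCAM- cells and 82.4% in coculture EpCAM- cells. The close paralogs Wnt5a and Wnt5b thus stood on opposite sides of the sort in all 8 libraries.

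The other 4 tested ligands had lower levels. Wnt4, which acts downstream of progesterone in mammary branching, had 2.95 and 3.01 FPKM in monoculture EpCAM+ libraries, against 0.352 and 0.227 FPKM in monoculture EpCAM- libraries. In coculture Wnt4 had 4.89 and 4.81 FPKM in EpCAM+ and 0.158 and 0.0717 FPKM in EpCAM- libraries. It was higher in EpCAM+ cells of both cultures, by 1.63 and 2.39 (log2). Wnt9a had 3.58 and 3.48 FPKM in monoculture EpCAM+ libraries, against 1.08 and 1.13 FPKM in monoculture EpCAM- libraries, and 3.74 and 3.95 FPKM in coculture EpCAM+ libraries, against 2.22 and 2.44 FPKM in coculture EpCAM- libraries. Wnt9a was also higher in EpCAM+ cells of both cultures, by 1.10 and 0.54. Wnt9a, Tcf7, Znrf3 and Fzd2 lie on chromosome 11, where the median change over genes at 5 FPKM or more was 0.54 in monoculture and 0.52 in coculture; medians of that size were also found on chromosomes 3 (0.55 and 0.57) and 4 (0.55 and 0.55), which carry Wnt2b, Dkk2, Wnt4 and Ror1, while every other chromosome had a median of at most 0.36. The part of this shift in the changes of those genes was not tested.

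Wnt11, a ligand of gastrulation movements that acts mostly without beta-catenin, and Wnt2b lay on different sides of the sort in the 2 cultures. Wnt11 had 3.26 and 3.05 FPKM in monoculture EpCAM+ libraries, against 0.344 and 0.245 FPKM in monoculture EpCAM- libraries, and was higher in EpCAM+ by 1.68 (SE 0.061, adjusted p = 3.47e-08). In coculture Wnt11 had 1.94 and 1.78 FPKM in EpCAM+ and 2.65 and 2.53 FPKM in EpCAM- libraries, and was lower in EpCAM+ by 0.33 (log2 fold change -0.33, SE 0.061, adjusted p = 0.00112). Wnt2b had 0.627 and 0.533 FPKM in monoculture EpCAM+ libraries, against 0.214 and 0.166 FPKM in monoculture EpCAM- libraries, which gave 0.41 on the log2 scale (SE 0.063, adjusted p = 3.41e-04). In coculture Wnt2b had 0.693 and 0.548 FPKM in EpCAM+ and 2.69 and 2.75 FPKM in EpCAM- libraries, which gave -1.20 (SE 0.063, adjusted p = 3.86e-07). For both genes the EpCAM- level, low in monoculture and higher in coculture, moved more than the EpCAM+ level.

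The other 12 ligands did not reach a mean of 1 FPKM in any group and were not tested. Wnt7a, the close paralog of Wnt7b, was the highest of them, at 0.649 and 0.851 FPKM in monoculture EpCAM+ and 0.287 and 0.237 FPKM in coculture EpCAM+ libraries, and was listed at 0 in all 4 EpCAM- libraries. Wnt2 reached at most 0.156 FPKM and Wnt10b at most 0.11 FPKM, each with its highest values in EpCAM- libraries. Wnt16, Wnt6, Wnt10a, Wnt1 and Wnt9b stayed at or below 0.0346 FPKM in every library. Wnt3, Wnt3a, Wnt8a and Wnt8b were listed at 0 in all 8 libraries. Wnt1 and Wnt3 are known mammary oncogenes of mice and Wnt3a is a classical activator of beta-catenin signalling, and none of them had more than 0.0133 FPKM in any library.

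Of the 8 tested Frizzled receptors, 3 were higher and 5 lower in monoculture EpCAM+ cells, and 3 were higher and 4 lower in coculture EpCAM+ cells. On the log2(FPKM + 1) scale Fzd7, a receptor linked to mammary stem cells in mice, differed most in monoculture, and Fzd6 in coculture. By the ratio of mean FPKM, Fzd3 differed most of the 8. Its EpCAM+ mean was 2142% of the EpCAM- mean in monoculture and 960% in coculture, at lower levels. Fzd7 (ENSMUSG00000041075.8, chr1:59482424-59486955, plus strand) had 9.06 and 9.33 FPKM in monoculture EpCAM+ libraries, against 79.7 and 82.3 FPKM in monoculture EpCAM- libraries. In coculture Fzd7 had 15.4 and 14.5 FPKM in EpCAM+ and 46.5 and 45.6 FPKM in EpCAM- libraries. It was lower in EpCAM+ cells of both cultures, with log2 fold changes of -3.01 (SE 0.035, adjusted p = 4.96e-11) in monoculture and -1.56 (SE 0.035, adjusted p = 1.98e-09) in coculture. Fzd7 gave 8.8% of the Frizzled sum of monoculture EpCAM+ cells, against 48.1% in monoculture EpCAM- cells, and 13.7% in coculture EpCAM+ cells, against 41.6% in coculture EpCAM- cells.

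Fzd6, a receptor of planar cell polarity in mouse skin, led the Frizzled receptors of EpCAM+ cells. It had 30.8 and 31.5 FPKM in monoculture EpCAM+ libraries, against 8.81 and 8.92 FPKM in monoculture EpCAM- libraries, and 29.8 and 29.6 FPKM in coculture EpCAM+ libraries, against 8.44 and 8.31 FPKM in coculture EpCAM- libraries. Its log2 fold change was 1.70 in monoculture (SE 0.029, adjusted p = 3.80e-10) and 1.71 in coculture (SE 0.029, adjusted p = 4.05e-10). Fzd1 came next, with 25.9 and 25.9 FPKM in monoculture EpCAM+ libraries, against 13.4 and 12.9 FPKM in monoculture EpCAM- libraries, and 28.1 and 27.6 FPKM in coculture EpCAM+ libraries, against 9.36 and 9.25 FPKM in coculture EpCAM- libraries. Fzd1 was higher in EpCAM+ cells by 0.93 and 1.48. Fzd3, a guidance receptor in neurons, had 2.14 to 2.18 FPKM in the 4 EpCAM+ libraries and 0.097 to 0.239 FPKM in the 4 EpCAM- libraries, and was higher in EpCAM+ by 1.53 in monoculture and 1.36 in coculture.

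The remaining Frizzled receptors were spread over both fractions. Fzd2 had 19.0 and 19.1 FPKM in monoculture EpCAM+ libraries, against 32.9 and 32.4 FPKM in monoculture EpCAM- libraries, and 20.1 and 18.6 FPKM in coculture EpCAM+ libraries, against 26.4 and 26.3 FPKM in coculture EpCAM- libraries. Fzd2 was lower in EpCAM+ cells in both cultures, with log2 fold changes of -0.75 and -0.43. Fzd4, the Norrin receptor, and Fzd5 were likewise lower in EpCAM+ cells, with -0.93 and -0.66 for Fzd4 and -0.87 and -0.44 for Fzd5. Fzd4 averaged 6.18 ± 0.145 FPKM in monoculture EpCAM+ and 12.7 ± 1.37 FPKM in monoculture EpCAM- libraries, and Fzd5 averaged 3.79 ± 0.111 FPKM in monoculture EpCAM+ and 7.75 ± 0.0505 FPKM in monoculture EpCAM- libraries (SD, n = 2 each). Fzd8 had 7.13 and 6.78 FPKM in monoculture EpCAM+ libraries, against 11.9 and 12.4 FPKM in monoculture EpCAM- libraries, and was lower by 0.73 on the log2 scale (log2 fold change -0.73). In coculture Fzd8 had 6.83 and 6.20 FPKM in EpCAM+ and 7.11 and 7.15 FPKM in EpCAM- libraries, and missed the threshold (log2 fold change -0.12, SE 0.051, adjusted p = 0.0628). It passed without coculture EpCAM+ Rep1 (-0.18, adjusted p = 0.0185), and with libraries scaled by the median of ratios (-0.37). Fzd9 reached at most 0.427 FPKM, and Fzd10 was listed at 0 in all libraries.

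Among the co-receptors, Ryk, a receptor with an inactive kinase domain, had the highest level in each of the 4 groups, and Ror2 split the fractions most. Ryk had 48.4 and 48.5 FPKM in monoculture EpCAM+ libraries, against 76.7 and 74.9 FPKM in monoculture EpCAM- libraries, and 45.3 and 46.5 FPKM in coculture EpCAM+ libraries, against 58.7 and 60.2 FPKM in coculture EpCAM- libraries. It was lower in EpCAM+ cells, with log2 fold changes of -0.63 and -0.37. Ror2 (ENSMUSG00000021464.14, chr13:53109312-53286124, minus strand), the kinase receptor of Wnt5a, was listed at 0 in monoculture EpCAM+ Rep1 and had 0.017 FPKM in monoculture EpCAM+ Rep2, against 7.98 and 8.43 FPKM in monoculture EpCAM- libraries. In coculture it had 0.15 and 0.155 FPKM in EpCAM+ and 10.9 and 10.6 FPKM in EpCAM- libraries. Its log2 fold changes were -3.19 (SE 0.048, adjusted p = 1.99e-10) in monoculture and -3.35 (SE 0.048, adjusted p = 1.67e-10) in coculture. The RNAs of Wnt5a and Ror2, a known ligand and receptor pair, were thus high in the same fraction in both cultures.

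Lrp5, which pairs with Frizzled receptors for beta-catenin signalling, lay on the other side. It had 37.8 and 40.0 FPKM in monoculture EpCAM+ libraries, against 17.4 and 17.9 FPKM in monoculture EpCAM- libraries, and 40.5 and 41.2 FPKM in coculture EpCAM+ libraries, against 8.02 and 8.24 FPKM in coculture EpCAM- libraries. Lrp5 was higher in EpCAM+ cells by 1.10 (SE 0.035, adjusted p = 1.58e-08) in monoculture and by 2.20 (SE 0.035, adjusted p = 2.91e-10) in coculture. Lrp6, its close paralog with a like role, had 13.3 and 13.4 FPKM in coculture EpCAM+ and 8.93 and 9.11 FPKM in coculture EpCAM- libraries, and was higher in EpCAM+ by 0.51. In monoculture Lrp6 had 11.9 and 11.5 FPKM in EpCAM+ and 10.6 and 11.5 FPKM in EpCAM- libraries, a change of 0.07 that missed the threshold (adjusted p = 0.156). That sign was not stable under scaling: it was called lower in EpCAM+ cells with the median of ratios (-0.16, adjusted p = 0.0134) and quantile normalization (-0.11, adjusted p = 0.0412), and higher (0.13, adjusted p = 0.0286) without monoculture EpCAM- Rep2. Ror1 was low in every group, with 2.77 and 2.74 FPKM in monoculture EpCAM+, 2.58 and 2.70 FPKM in monoculture EpCAM-, 1.81 and 1.94 FPKM in coculture EpCAM+ and 2.09 and 2.11 FPKM in coculture EpCAM- libraries. Neither of its changes between the fractions passed as deposited, at 0.05 in monoculture (adjusted p = 0.378) and -0.11 in coculture (adjusted p = 0.0647). With the median of ratios both were called lower in EpCAM+ cells, at -0.13 (adjusted p = 0.0315) and -0.30 (adjusted p = 5.72e-04), and the coculture change was also called with a constant sum (-0.17), quantile normalization (-0.45) and the share subtracted (-0.12).

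Dkk2 held most of the antagonist RNA in every group. Dkk2, which binds Lrp5 and Lrp6, had 10.9 and 10.1 FPKM in monoculture EpCAM+ libraries, against 28.2 and 28.1 FPKM in monoculture EpCAM- libraries, and 12.6 and 12.4 FPKM in coculture EpCAM+ libraries, against 26.3 and 25.9 FPKM in coculture EpCAM- libraries. It was lower in EpCAM+ cells of both cultures, with log2 fold changes of -1.34 (SE 0.037, adjusted p = 6.65e-09) and -1.01 (SE 0.037, adjusted p = 4.33e-08). Dkk2 gave 85.8% to 92.1% of the antagonist sum in the 4 groups. Dkk3, a family member with no firmly known part in Wnt signalling, was listed at 0 in monoculture EpCAM+ Rep1 and had 0.0201 FPKM in monoculture EpCAM+ Rep2, against 1.01 and 1.04 FPKM in monoculture EpCAM- libraries, and 0.0282 and 0.0299 FPKM in coculture EpCAM+ libraries, against 0.78 and 0.857 FPKM in coculture EpCAM- libraries. It was lower in EpCAM+ cells, with changes of -1.0 and -0.82 on the log2(FPKM + 1) scale.

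Sfrp1, which binds Wnt ligands, had 1.18 and 0.949 FPKM in monoculture EpCAM+ and 1.43 and 1.20 FPKM in monoculture EpCAM- libraries, a change of -0.17 that missed the threshold (adjusted p = 0.0648). It passed, with -0.25 and -0.24, without monoculture EpCAM+ Rep1 (adjusted p = 0.0231) or monoculture EpCAM- Rep2 (adjusted p = 0.0319). It also passed with a constant sum (-0.20, adjusted p = 0.0282), the median of ratios (-0.30, adjusted p = 0.00469) and quantile normalization (-0.28, adjusted p = 0.00938). In coculture Sfrp1 had 1.67 and 1.79 FPKM in EpCAM+ and 0.786 and 0.816 FPKM in EpCAM- libraries, and was higher in EpCAM+ by 0.60. Sfrp4 reached a mean of 1.16 ± 0.233 FPKM in monoculture EpCAM- cells (SD, n = 2) and 0.163 to 0.524 FPKM as a mean in the other 3 groups, but was at 1 FPKM or more in only 1 library and was not tested. Sfrp2 reached at most 0.152 FPKM. Dkk1, Dkk4 and Sfrp5 were listed at 0 in all libraries.

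Tcf7, which encodes the transcription factor TCF1, was nearly limited to EpCAM+ libraries. Tcf7 (ENSMUSG00000000782.15, chr11:52252371-52283014, minus strand) had 10.3 and 11.5 FPKM in monoculture EpCAM+ libraries, against 0.057 and 0.0987 FPKM in monoculture EpCAM- libraries, and 10.6 and 10.4 FPKM in coculture EpCAM+ libraries, against 0.0926 and 0.351 FPKM in coculture EpCAM- libraries. The log2 fold changes were 3.46 (SE 0.099, adjusted p = 8.43e-09) and 3.24 (SE 0.099, adjusted p = 1.37e-08). Lef1, a related factor, was the reverse at low levels and was not tested. It had at most 0.026 FPKM in EpCAM+ libraries, 0.29 and 0.193 FPKM in monoculture EpCAM- and 0.755 and 0.691 FPKM in coculture EpCAM- libraries. The TCF factors Tcf7l1 and Tcf7l2, which the rule on names does not pick, had RNA in both fractions. Tcf7l1 averaged 10.3 FPKM in monoculture EpCAM+ and 15.0 FPKM in monoculture EpCAM- libraries (-0.5, called). Its coculture means were 8.3 and 8.39 FPKM (-0.01, not called). Tcf7l2 averaged 6.7 FPKM in monoculture EpCAM+ and 6.34 FPKM in monoculture EpCAM- libraries (0.07, not called). Its coculture means were 8.54 and 5.79 FPKM (0.49, called). Znrf3, a ligase that removes Frizzled receptors from the cell surface, had 3.69 and 3.75 FPKM in monoculture EpCAM+ libraries, against 1.56 and 1.55 FPKM in monoculture EpCAM- libraries, and 3.77 and 3.76 FPKM in coculture EpCAM+ libraries, against 2.13 and 2.43 FPKM in coculture EpCAM- libraries. It was higher in EpCAM+ cells by 0.89 and 0.54. Axin2, the usual readout of beta-catenin signalling, reached at most 0.0902 FPKM, and Rnf43, the other E3 ligase described here, at most 0.0534 FPKM. Neither was tested, and FPKM without read counts give no limit of detection for them.

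A sorted fraction can hold some cells of the other. For EpCAM+ libraries 11 stromal genes were used: Col1a1, Col1a2, Col3a1, Col5a2, Bgn, Acta2, Col6a3, Serpinf1, Lox, Fbn1 and Pdgfrb. Their level in each EpCAM+ library, as a percentage of the EpCAM- mean of the same culture, had a median of 0.127% and 0.139% in monoculture and 1.69% and 1.71% in coculture. For EpCAM- libraries 8 epithelial genes were used: Krt8, Krt18, Krt19, Krt7, Krt16, Cdh1, Epcam and Spint2. As a percentage of the EpCAM+ mean, their medians were 0.174% and 0.191% in monoculture and 0.25% and 0.281% in coculture. These genes were picked with earlier results of these data known. In coculture EpCAM+ cells Wnt5a stood at 1.81% and Ror2 at 1.42% of the EpCAM- level, inside or near the range of the 11 genes (1.36% to 1.93%). That narrow range goes with the choice of genes: among the stromal markers at 1 FPKM or more in EpCAM- cells, the median was 1.78% in coculture EpCAM+ and 0.157% in monoculture EpCAM+ cells, but Postn stood at 14.2% and 23.0%, Twist1 at 3.12% and 1.22% and Pdgfra at 2.78% and 0.892%. In monoculture EpCAM+ cells Wnt5a stood at 0.533% and Ror2 at 0.103%, where the 11 genes ranged over 0.0762% to 0.472%. Fzd7 stood at 11.3% in monoculture, under Postn, and at 32.4% in coculture, above every stromal marker. Dkk2 stood at 37.3% and 47.8%, above every stromal marker in both cultures.

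In EpCAM- cells the RNA of Wnt7b stood at 0.143% of the EpCAM+ level in monoculture and 0.323% in coculture, beside the epithelial genes. Wnt5b stood higher, at 1.77% and 1.97%, where the 8 epithelial genes ranged up to 0.304% and 0.437%. Tcf7 stood at 0.716% and 2.12%. After the median share was subtracted from every gene, Wnt5a had 0.124 and 0.0633 FPKM in monoculture EpCAM+ and 0.192 and 0 FPKM in coculture EpCAM+ libraries. Ror2 had 0 and 0.00552 FPKM in monoculture EpCAM+ and 0 in both coculture EpCAM+ libraries.

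**Figure D4:**
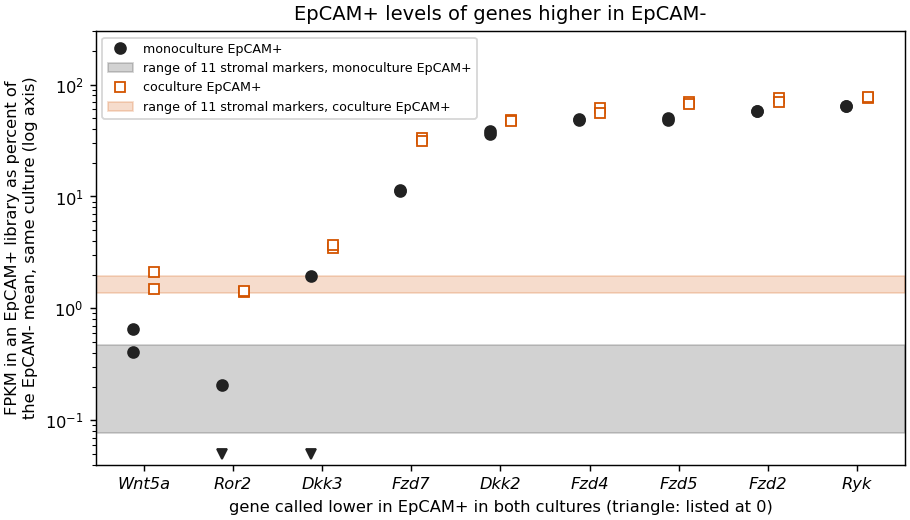
FPKM in each EpCAM+ library as a percentage of the EpCAM- mean of the same culture, on a log axis, for the 9 Wnt genes called lower in EpCAM+ in both cultures, with filled circles for monoculture, open squares for coculture and triangles for values listed at 0. Shaded bands span the same percentage over 11 stromal genes; Wnt5a and Ror2 lie in or near the bands, Dkk3 lies above the coculture band, and the 6 genes from Fzd7 to Ryk lie far above both bands, which leave out the higher values of Postn, Twist1 and Pdgfra.

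Between the cultures, fewer of these genes were called in EpCAM+ cells than in EpCAM- cells, and those with smaller changes. The order was the same over all tested genes, with 51.4% called in EpCAM+ and 62.7% in EpCAM- cells, and 1.94% and 4.52% at 2-fold. In EpCAM+ cells 15 of the 25 tested genes were called between monoculture and coculture, 5 higher and 10 lower in monoculture, where 51.4% of all tested genes were called (16.4% higher and 34.9% lower). None of the 15 passed at 2-fold, where 1.94% of all genes did. Of all called genes, 32.0% were higher in monoculture EpCAM+ cells as deposited, 46.3% with the median of ratios and 53.3% with quantile normalization. Among the ligands, Wnt11 was higher in monoculture EpCAM+ cells by 0.54 (SE 0.061, adjusted p = 2.52e-04) and Wnt4 was lower (log2 fold change -0.55, SE 0.065, adjusted p = 2.98e-04). Wnt7b and Wnt5b, the leading ligands, were lower by 0.23 and 0.20 on the log2 scale (log2 fold changes -0.23 and -0.20), and the call of Wnt7b ended with a pseudocount of 0.1 (adjusted p = 0.209). Fzd7 was lower in monoculture EpCAM+ cells (log2 fold change -0.64, SE 0.035, adjusted p = 5.41e-06), Ror1 higher by 0.39, Sfrp1 lower (-0.41) and Dkk2 lower (-0.23).

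Other calls in EpCAM+ cells were of small changes or ended under an alternative. Wnt5a was lower in monoculture EpCAM+ cells (-0.66, adjusted p = 2.85e-04) and so was Ror2 (-0.19, adjusted p = 0.012), but both changes were 0.00 after subtraction of the other fraction's share, which was 1.69% to 1.71% in coculture and 0.127% to 0.139% in monoculture EpCAM+ libraries. Leaving out 1 library ended 7 of the 15 calls. Fzd4 (0.32) was lost without coculture EpCAM+ Rep2 (adjusted p = 0.0577), Wnt5b without monoculture EpCAM+ Rep1 (0.0544) or coculture EpCAM+ Rep1 (0.057), and Ror2 without monoculture EpCAM+ Rep1 (0.0554) or coculture EpCAM+ Rep2 (0.0505). Lrp6 (-0.17) was lost without monoculture EpCAM+ Rep2, coculture EpCAM+ Rep1 or coculture EpCAM+ Rep2 (adjusted p 0.0526 to 0.0774). Ryk (0.08) was lost without either monoculture EpCAM+ library or coculture EpCAM+ Rep1 (0.103 to 0.174), Fzd1 (-0.10) without any 1 of the 4 EpCAM+ libraries (0.0725 to 0.136), and Fzd5 (0.15) without any 1 of those 4 or of the 2 monoculture EpCAM- libraries (0.0537 to 0.16). Wnt2b, Wnt9a, Fzd2, Fzd3, Fzd6, Fzd8, Lrp5, Dkk3, Tcf7 and Znrf3 did not pass, with changes between -0.10 and 0.08. With the median of ratios Fzd1 (-0.04) and Lrp6 (-0.12) lost their calls and Fzd6 (0.12) gained one. Leaving out 1 library brought the count of Wnt genes called to 10 to 15.

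In EpCAM- cells 23 of the 25 genes were called, 14 higher and 9 lower in monoculture, where 62.7% of all tested genes were called (32.4% higher and 30.3% lower). At 2-fold, 1 was higher and 2 were lower, where 4.52% of all genes passed (2.56% higher and 1.96% lower). Most ligands and most Frizzled receptors went opposite ways. Of the 7 ligands, 6 were lower in monoculture EpCAM- cells: Wnt2b by the most (log2 fold change -1.64, SE 0.063, adjusted p = 3.30e-07), then Wnt11 (-1.47, SE 0.061, adjusted p = 5.14e-07), Wnt5a (-0.87, SE 0.077, adjusted p = 3.31e-05), Wnt9a (-0.66), Wnt5b (-0.17) and Wnt7b (-0.16). Wnt5a averaged 23.4 ± 1.21 FPKM in monoculture and 43.3 ± 0.596 FPKM in coculture EpCAM- libraries (SD, n = 2 each). Of the 8 Frizzled receptors, 6 were higher in monoculture EpCAM- cells: Fzd7 by 0.80, Fzd8 by 0.70, Fzd4 by 0.59, Fzd5 by 0.58, Fzd1 by 0.46 and Fzd2 by 0.30. Lrp5 was higher by 1.03 (SE 0.035, adjusted p = 1.78e-07), at 17.6 ± 0.321 FPKM in monoculture and 8.13 ± 0.153 FPKM in coculture EpCAM- libraries. Lrp6 (0.27), Ryk (0.35), Ror1 (0.23) and Sfrp1 (0.36) were higher as well, and Ror2 (-0.35) and Znrf3 (-0.36) were lower. Counts of either kind stayed at 13 to 15 higher and 8 or 9 lower under the 3 other scalings and with the other fraction's share subtracted.

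**Figure D5:**
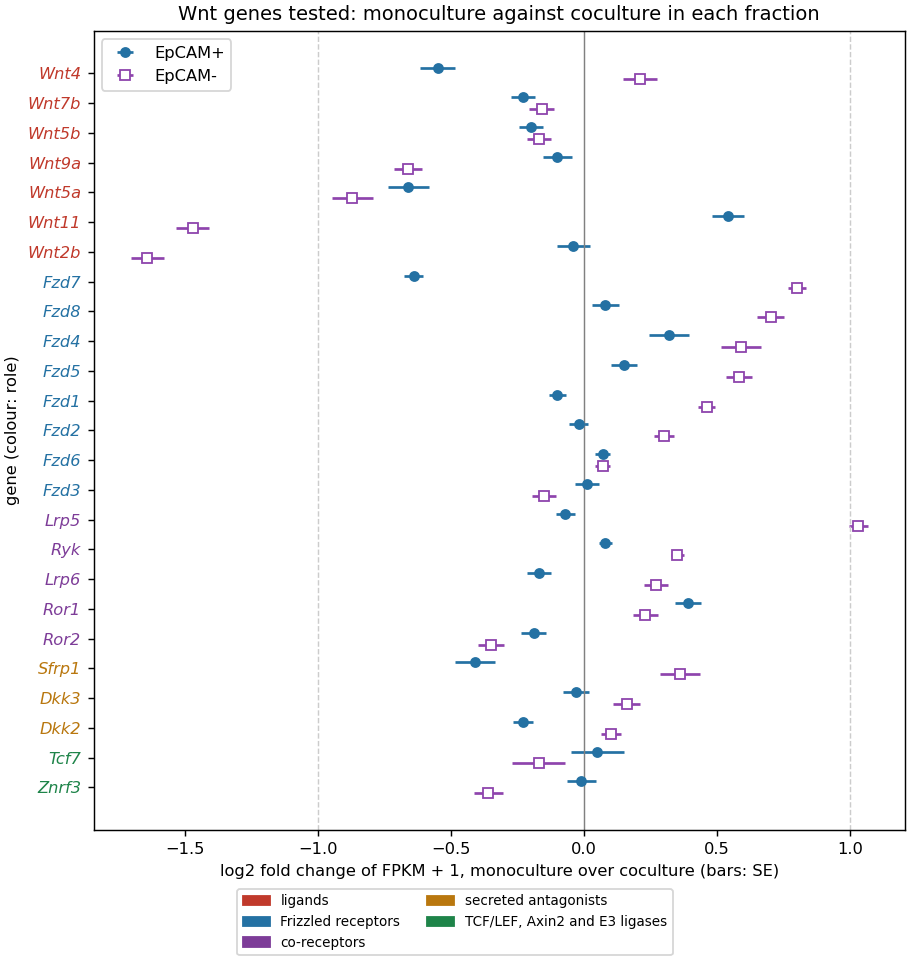
Log2 fold change of FPKM + 1, monoculture over coculture, for the 25 tested Wnt genes, with filled circles for EpCAM+, open squares for EpCAM-, bars for the standard error and dashed lines at a change of 2-fold. The EpCAM- squares of 6 of 8 Frizzled receptors and of Lrp5 lie to the right and those of Wnt2b, Wnt11, Wnt5a and Wnt9a to the left, while the EpCAM+ circles stay within the dashed lines.

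Small calls in EpCAM- cells again depended on single libraries. Wnt4 (0.21) was lost without monoculture EpCAM- Rep1 (adjusted p = 0.131) or coculture EpCAM- Rep2 (0.129), Wnt5b without coculture EpCAM- Rep2 (0.0586), and Wnt7b without monoculture EpCAM- Rep2 (0.0709) or coculture EpCAM- Rep2 (0.0885). Wnt7b was also lost with the other fraction's share subtracted (-0.05, adjusted p = 0.354). Dkk3 (0.16) was lost with a pseudocount of 0.1 (adjusted p = 0.121) and without either monoculture EpCAM- library or coculture EpCAM- Rep1 (0.06 to 0.124), and Fzd3 (-0.15) without any of the same 3 libraries (0.0537 to 0.0941). Dkk2 (0.10) was lost without any 1 of the 4 EpCAM- or the 2 coculture EpCAM+ libraries (0.0574 to 0.157), and with libraries brought to a constant sum (0.08). Fzd6 (0.07, adjusted p = 0.0574) and Tcf7 (-0.17, adjusted p = 0.168) did not pass; Tcf7 passed without coculture EpCAM- Rep1 (-0.33, adjusted p = 0.0112). Leaving out 1 library brought the count of Wnt genes called to 19 to 23.

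Whether the change between cultures differed between the fractions was tested as an interaction, the change of monoculture over coculture in EpCAM+ cells less that in EpCAM- cells. Of the 25 genes 15 were called, 4 higher and 11 lower, where 65.2% of all tested genes were called (26.0% higher and 39.2% lower). Wnt11 (2.01, SE 0.086, adjusted p = 8.51e-07) and Wnt2b (1.61, SE 0.089, adjusted p = 2.98e-06) had the highest values, and Fzd7 (-1.44, SE 0.049, adjusted p = 3.06e-07) and Lrp5 (-1.10, SE 0.049, adjusted p = 1.07e-06) the lowest. These 4 were the Wnt genes past 2-fold, where 8.09% of all genes passed (2.43% higher and 5.66% lower). By role, as deposited, 3 ligands were called higher and 1 lower. As deposited, 5 Frizzled receptors and 3 co-receptors were called lower and none higher. Fzd7 went opposite ways in the fractions, lower in monoculture EpCAM+ and higher in monoculture EpCAM- cells, in every library pair. For Wnt7b (-0.07, adjusted p = 0.353), Wnt5b (-0.03, adjusted p = 0.717) and Fzd6 (-0.01, adjusted p = 0.878) no difference was called. Wnt5a (0.20, adjusted p = 0.135), for which a pseudocount of 0.1 gave -1.08 and subtraction of the other fraction's share 0.87, was called without coculture EpCAM+ Rep1 (0.32, adjusted p = 0.0156), Tcf7 (0.22, adjusted p = 0.203) without coculture EpCAM- Rep1 (0.37, adjusted p = 0.0172), and Fzd4 (-0.27, adjusted p = 0.055) without monoculture EpCAM- Rep1 (-0.37, adjusted p = 0.0127) or coculture EpCAM+ Rep2 (-0.34, adjusted p = 0.0375). Of all called genes 39.9% were higher as deposited and 53.2% with quantile normalization.

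Genes that carry or shape the Wnt signal outside the 47 were counted by lists, beside which 55.4% of all tested genes were higher and 32.4% lower in monoculture EpCAM+ cells, and 59.2% higher and 28.0% lower in coculture EpCAM+ cells. Of 6 genes of ligand secretion, 1 was higher and 3 lower in monoculture EpCAM+ than in EpCAM- cells, and 2 higher and 3 lower in coculture EpCAM+ cells. Wls, the ligand carrier, picked after its values were seen, had 61.1 and 60.7 FPKM in monoculture EpCAM+ libraries, against 95.4 and 95.2 FPKM in monoculture EpCAM- libraries, and 63.7 and 63.0 FPKM in coculture EpCAM+ libraries, against 66.1 and 65.2 FPKM in coculture EpCAM- libraries. Porcn, which attaches the lipid to the ligand, was higher in EpCAM+ cells, by 0.36 and 0.42. Both fractions thus held RNA of the enzyme and the carrier that ligand release needs.

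R-spondins, which raise the cell's answer to Wnt, and their receptors gave 4 tested genes. Of these, 1 was higher and 3 lower in monoculture EpCAM+ than EpCAM- cells, and 3 higher and 1 lower in coculture EpCAM+ cells, where 87.9% and 87.2% of all tested genes were called. Rspo3 had 6.23 and 5.78 FPKM in monoculture EpCAM+ libraries, against 16.0 and 15.6 FPKM in monoculture EpCAM- libraries (log2 fold change -1.26), and 9.18 and 8.70 FPKM in coculture EpCAM+ libraries, against 1.39 and 1.75 FPKM in coculture EpCAM- libraries (1.96). Rspo2 was listed at 0 in both monoculture EpCAM+ libraries, against 13.4 and 13.3 FPKM in monoculture EpCAM- libraries, and had 0 and 0.00908 FPKM in coculture EpCAM+ libraries, against 0.284 and 0.347 FPKM in coculture EpCAM- libraries. The receptor Lgr6 had 35.2 and 34.5 FPKM in monoculture EpCAM+ libraries, against 1.03 and 1.39 FPKM in monoculture EpCAM- libraries (4.02), and 39.9 and 39.2 FPKM in coculture EpCAM+ libraries, against 19.1 and 18.4 FPKM in coculture EpCAM- libraries (1.04). Lgr4, the other tested receptor, had 13.5 and 14.2 FPKM in monoculture EpCAM+ libraries, against 17.1 and 17.9 FPKM in monoculture EpCAM- libraries (-0.31). Its coculture levels were 18.1 and 17.7 FPKM in EpCAM+ and 14.0 and 13.9 FPKM in EpCAM- libraries (0.33). In EpCAM- cells, then, Rspo2 and Rspo3 were high in monoculture, where Lgr6 was low and Lgr4 higher than in coculture.

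Of 6 tested extracellular modulators, 1 was higher and 5 lower in monoculture EpCAM+ cells, and 2 higher and 4 lower in coculture EpCAM+ cells. The glypican Gpc4 had log2 fold changes of -1.83 and -1.93 and the ligand protease Trabd2b of -3.01 and -1.84, while the inhibitor Apcdd1 was higher by 0.56 and 1.67. Of 5 tested other receptors, 2 were higher and 2 lower in monoculture EpCAM+ cells, and 3 higher and 2 lower in coculture EpCAM+ cells. Reck, a membrane protein that serves Wnt7a and Wnt7b in brain endothelium of mice, had 0.0694 and 0.0441 FPKM in monoculture EpCAM+ libraries, against 6.22 and 7.01 FPKM in monoculture EpCAM- libraries, and was lower in EpCAM+ cells of both cultures (-2.85 and -1.54). The polarity receptor Ptk7 was higher in EpCAM+ cells, by 1.76 and 1.05.

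Inside the cell, of 16 tested genes of the destruction complex and its partners, 12 were higher and 2 lower in monoculture EpCAM+ cells, where 55.4% of all tested genes were higher and 32.4% lower. In coculture EpCAM+ cells 10 were higher and none lower, where 59.2% of all tested genes were higher and 28.0% lower. This list was counted as deposited only, and its median change was 0.41 in monoculture and 0.37 in coculture. Scaling by the median of ratios moved the all-gene median by -0.21 and -0.26, so these counts can depend on scaling. Ctnnb1, which encodes beta-catenin, had 344 and 343 FPKM in monoculture EpCAM+ libraries, against 188 and 187 FPKM in monoculture EpCAM- libraries, and 418 and 417 FPKM in coculture EpCAM+ libraries, against 194 and 194 FPKM in coculture EpCAM- libraries; beta-catenin also serves cell junctions. Of 14 nuclear factors, 5 were higher and 7 lower in monoculture EpCAM+ cells, and 9 higher and 4 lower in coculture EpCAM+ cells, with Sox9 the most different (4.37 and 5.51). Of 11 planar polarity genes, 6 were higher and 4 lower in monoculture EpCAM+ cells, and 6 higher and 5 lower in coculture EpCAM+ cells. The polarity cadherins Celsr1 (5.50 and 5.82) and Celsr2 (4.56 and 4.98) were higher and Dact3 (-4.51 and -3.77) lower in EpCAM+ cells.

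Of 10 tested genes listed as targets or feedback genes of the pathway, 6 were higher and 3 lower in monoculture EpCAM+ cells, and 6 higher and 4 lower in coculture EpCAM+ cells, near the shares over all tested genes (55.4% and 32.4%, and 59.2% and 28.0%). Nkd2, which binds Dishevelled and dampens the signal, had 96.3 and 95.9 FPKM in monoculture EpCAM+ libraries, against 2.90 and 2.92 FPKM in monoculture EpCAM- libraries. In coculture Nkd2 had 252 and 252 FPKM in EpCAM+ and 1.17 and 1.21 FPKM in EpCAM- libraries. It was higher in EpCAM+ cells by 4.63 and 6.85, and within EpCAM+ cells it was lower in monoculture by more than 2-fold (log2 fold change -1.38, SE 0.026, adjusted p = 3.04e-08). Wisp1, which encodes a matrix-associated protein, had 10.4 and 9.95 FPKM in monoculture EpCAM+ libraries, against 77.5 and 81.6 FPKM in monoculture EpCAM- libraries, and was lower in EpCAM+ cells of both cultures (-2.85 and -3.19). Tnfrsf19 was higher (1.98 and 2.76) and Tbx3 lower (-2.60 and -2.48) in EpCAM+ cells. The list held 20 genes with values, and those not tested reached at most 0.615 FPKM in any library (Mmp7). Among them Nkd1 reached at most 0.192 FPKM, Sp5 0.162, Notum 0.132, Ascl2 0.0629 and Lgr5 0.0222 FPKM.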

How the data were processed

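Per the labels' protocols, total RNA of 8 libraries was read in 150 bp pairs by an Illumina HiSeq. HISAT2, HTSeq, edgeR, SAMtools, cutadapt and FastQC are named in the submitters' processing notes, with no versions, beside mouse build mm10. Each library has a file of FPKM per gene, computed and deposited by the authors. Not given in the sources used here are the annotation, the use of strand and the handling of reads shared between gene copies. Read counts could not be recovered, so depth is unknown and no counting interval or detection limit is given; relative depths lay between 0.914 and 1.16. No column was left unused.

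From the FPKM, log2(FPKM + 1) was computed with Python 3.11.15 and pandas 2.3.3. The R 4.3.3 package limma 3.58.1 fitted them as means of the 4 groups over all 8 libraries (4 residual degrees of freedom, eBayes with trend). Genes with at least 1 FPKM in at least 2 libraries were tested (12012) and p-values adjusted by Benjamini-Hochberg over all of them. The contrasts were EpCAM+ over EpCAM- in each culture, monoculture over coculture in each fraction, and their interaction. The fit was also run on simulated data, with known changes in a small share of genes of a single group. Most genes were called between the fractions here, so that run does not measure the error of these calls.

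Wnt genes reaching a mean of 1 FPKM in any group are described with values and the rest by range; of each other list, up to 4 genes called in coculture EpCAM+ against EpCAM- with the largest change are named. The genes and lists were chosen with earlier results of these data known. Alternatives were pseudocounts, filters, scalings, the trend, a replicate block, leaving out each library, fitting only the libraries compared, and subtracting the other fraction's share; the 2-fold rule was chosen after seeing the data. Gene positions are from GENCODE M21 (GRCm38, as mm10) and promoters from RefSeq (GRCm38.p6).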

Additional observations from a re-analysis of the deposited data

Results flagged for a closer look

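For 15 Wnt genes and 28 other genes that the naming rule picks, 43 in all, the change of monoculture over coculture in EpCAM+ cells differed from that in EpCAM- cells by a limma interaction (adjusted p under 0.05, 2 libraries a group, log2 scale). The values are the change in EpCAM+ cells less that in EpCAM- cells, and no cause was tested.

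Among the Wnt genes the difference was positive for the ligands Wnt11 (2.01), Wnt2b (1.61) and Wnt9a (0.56) and the ligase Znrf3 (0.35). It was negative for the receptors Fzd7 (-1.44), Fzd8 (-0.61), Fzd1 (-0.56), Fzd5 (-0.43) and Fzd2 (-0.32), the co-receptors Lrp5 (-1.10), Lrp6 (-0.44) and Ryk (-0.27), the antagonists Sfrp1 (-0.77) and Dkk2 (-0.34), and the ligand Wnt4 (-0.76). Among these Wnt genes as deposited, every called receptor thus differed in 1 direction, and ligands in both. Over all tested genes 26.0% were called higher and 39.2% lower. Other settings called some receptors the other way. Fzd3, not called as deposited (0.16, adjusted p = 0.0614), was positive with the median of ratios (0.21) and quantile normalization (0.31). Ror1 was called positive with quantile normalization (0.35). Ror2 was called positive with the other fraction's share subtracted (0.36) and negative with a pseudocount of 0.1 (-0.84).

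A further 28 genes of the pathway lists, which the naming rule does not pick, were called too. Of those, named after their values were seen, Wisp2 (-2.86), Daam2 (-1.95), Tle2 (-1.66), Myc (1.52), Prickle1 (1.12) and Dact1 (1.06) had differences past 2-fold.

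Among the picked genes outside the Wnt genes, positive differences were found for the R-spondin receptor Lgr6 (2.99), Ptk7 (0.71), Wisp1 (0.34), Tmed5 (0.32), Tnks2 (0.18), Smo (0.13) and Gpc4 (0.10). The most negative of the picked genes were the R-spondins Rspo2 (-3.45) and Rspo3 (-3.22) and Nkd2 (-2.22). Modulators and receptors with negative values were Gpc6 (-1.35), Reck (-1.31), Trabd2b (-1.17), Apcdd1 (-1.12), Tspan12 (-0.93), Tnfrsf19 (-0.78) and Lgr4 (-0.65). The other negative values were those of Sox9 (-1.13), Ctnnbip1 (-0.97), Dact3 (-0.74), Daam1 (-0.65), Wls (-0.59), Celsr2 (-0.42), Vps35 (-0.42), Snx3 (-0.38), Celsr1 (-0.32), Dvl1 (-0.31) and Ctnnb1 (-0.23).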

How the results depend on the processing

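With genes tested at 5 FPKM or more, fewer Wnt genes could be tested (16), and 15 were called between the fractions in coculture and 14 between the cultures in EpCAM- cells. Leaving out 1 library gave 23 to 24 and 22 to 24 Wnt genes called between the fractions in coculture and monoculture, 10 to 15 and 19 to 23 between the cultures in EpCAM+ and EpCAM- cells, and 15 to 16 for the interaction. Over all genes the same ranges were 10045 to 10489, 10217 to 10522, 4842 to 6235, 6695 to 7441 and 7221 to 7483. Between EpCAM+ and EpCAM- in monoculture, scaling by the median of ratios turned Lrp6 (-0.16), Ror1 (-0.13) and Tmed5 (-0.20), and quantile normalization Lrp6 (-0.11) and Tmed5 (-0.11). Between the cultures in EpCAM+ cells, subtraction of the other fraction's share gave 0.18 for Dact3 and 0.00 for Wnt5a and Ror2, the median of ratios 0.00 for Wls, and quantile normalization 0.16 for Znrf3. For the interaction a pseudocount of 0.1 gave -0.84 for Ror2, -1.08 for Wnt5a and 0.53 for Wnt7b. The cause of these turns was not tested. The ratio of summed ligand RNA, EpCAM+ over EpCAM-, stayed at 3.53 to 4.22 in monoculture and 1.99 to 2.43 in coculture over the scalings and the subtraction, and that of co-receptors in coculture ran from 0.935 to 1.14. Same-numbered libraries did not deviate together (correlations of -0.0726 to 0.0406). That shows no pairing in the values but cannot tell if they shared a sort or a culture. With a replicate block 23, 22, 14, 23 and 15 Wnt genes were called in the 5 comparisons, in the order above. Over all genes the counts with that block were 10437, 10512, 5998, 7448 and 7720. With 2 libraries a group and unknown read depth, levels under 1 FPKM and small changes are the least firmly measured, and a missed threshold does not show that levels were equal.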
